A study of Mus musculus with 4 samples.

Results

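Retinoic acid, the active form of vitamin A, is made, bound, sensed and degraded by a small set of proteins, and 9 of their genes were followed here in DPPIV- and DPPIV+ fibro-adipogenic progenitors (FAPs) of mouse skeletal muscle. The genes are Rdh10, Aldh1a1, Aldh1a2 and Aldh1a3 for synthesis, Rbp4 and Crabp2 for binding, Rarb and Rarg as receptors and Cyp26b1 for degradation. They were taken by symbol, 9 of the 24421 gene symbols counted, and all 9 passed the filter on low counts. FAPs are stromal cells that lie between the muscle fibres, and they were sorted here as viable CD31- CD45- Sca1+ cells and divided by surface DPPIV, the peptidase encoded by Dpp4. The 4 libraries are bulk RNA sequencing of both populations from each of 2 mice. All were wild-type mice that received a CSF1R inhibitor, which depletes resident macrophages, for 3 weeks and then a regular diet for 3 days, so the series holds no library of untreated muscle. Age and sex of these 2 mice are not in the labels. As source, the tibialis anterior is named in the labels, while the extraction text describes the muscle of both hindlimbs.

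Retinol travels in blood on RBP4, and inside cells it is oxidised to retinal by dehydrogenases such as RDH10. The ALDH1A enzymes then oxidise retinal to retinoic acid, which CRABP2 carries to the nucleus, where it binds the receptors RARα, RARβ and RARγ as partners of the RXRs. CYP26 enzymes inactivate retinoic acid, and several genes of the pathway, Rarb, Crabp2, Dhrs3 and the Cyp26 genes among them, are known to be induced by it. FAPs give rise to fibroblasts and adipocytes, and retinoic acid is known to restrain the formation of adipocytes.

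The libraries held between 18240110 and 20879405 reads counted on genes. Dpp4 had 89.6 CPM in DPPIV- cells of mouse 1 and 39.6 CPM in mouse 2, and 727 and 574 CPM in DPPIV+ cells. CPM gives a gene's counts per 1000000 reads of a library, on library sizes scaled by edgeR's TMM method. The FAP genes Pdgfra and Ly6a reached at least 1157 and 960 CPM in every library. All 6 FAP genes listed differed between the populations in edgeR and in DESeq2. In DPPIV+ cells 4 were lower (log2 fold change of Pdgfra -0.38, Dcn -0.28, Col1a1 -0.40 and Pdgfrb -0.33) and 2 higher (Ly6a 0.58 and Cd34 0.52). Markers of other cells were present and partly moved with the sort. The 4 tenocyte genes (Tnmd, Scx, Mkx, Fmod) summed to 196 and 294 CPM in DPPIV- cells and to 747 and 1547 CPM in DPPIV+ cells, and 4 of 4 were higher. Most of these sums was Fmod, with 167 and 259 CPM in DPPIV- cells and 688 and 1442 CPM in DPPIV+ cells. Of 6 mural genes, 5 were lower in DPPIV+ cells, with sums of 121 and 123 CPM against 51.1 and 63.4 CPM. Blood endothelial genes (3 of 5) and macrophage genes (4 of 6) were lower in edgeR. Beside these marker counts, 15.9% of all genes tested were higher and 17.2% lower in edgeR. DESeq2 called 0 endothelial and 0 macrophage genes, with 0 and 1 at an unadjusted p under 0.05. The sums of both were lower mainly in mouse 1, from 64.3 to 40.8 CPM and from 318 to 198 CPM, against 36.4 to 34.7 CPM and 188 to 180 CPM in mouse 2. Adipocyte genes summed to at most 0.286 CPM and mesothelial genes to at most 0.329 CPM in any library, so these marker genes were at or near 0. In mouse 1, Xist, a transcript of the inactive X chromosome chosen after its values were seen, had 153 and 166 reads in DPPIV- and DPPIV+ cells, against 1 and 3 reads in mouse 2. The part of the tenocyte, mural, endothelial and macrophage signal in the results was not tested. In bulk RNA, a change in the number of cells of a type and a change in RNA per cell cannot be told apart.

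The retinal dehydrogenase Aldh1a3 stood far above the other members in the size of its difference. It was 12.2-fold higher in DPPIV+ than in DPPIV- cells, whereas Rbp4, Crabp2 and Cyp26b1 were between 2.46-fold and 3.37-fold lower, and the other 5 members differed by less than 1.5-fold. In edgeR's quasi-likelihood test with mouse as a block, 4 members were higher and 5 lower in DPPIV+ cells at an adjusted p under 0.05. Over all 11588 genes tested, 33.0% passed the same threshold, 15.9% higher and 17.2% lower. The members were chosen with earlier results of these data known, so their count is a description. In DESeq2's Wald test, 2 members were higher (Aldh1a3 and Rarg) and 4 lower (Aldh1a2, Rbp4, Crabp2 and Cyp26b1), where 16.6% of all genes passed, 7.97% higher and 8.59% lower. Without mouse in the edgeR model, 3 members were higher (Rdh10, Aldh1a3 and Rarb) and 1 lower (Rbp4), where 18.3% of all genes passed, 8.64% higher and 9.66% lower. The CPM ranges of the populations did not overlap for 7 of 9 members, all but Aldh1a1 and Aldh1a2, and for 56.3% of the genes tested. With 2 mice the test borrows the spread from genes of similar abundance, which makes the adjusted p of abundant genes very small. The standard errors of edgeR rest on the same borrowed spread and do not measure how far the mice differed for a gene. Aldh1a1 had a standard error of 0.07, while its log2 ratios within mouse 1 and mouse 2 were -0.35 and 0.03.

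**Figure D1:**
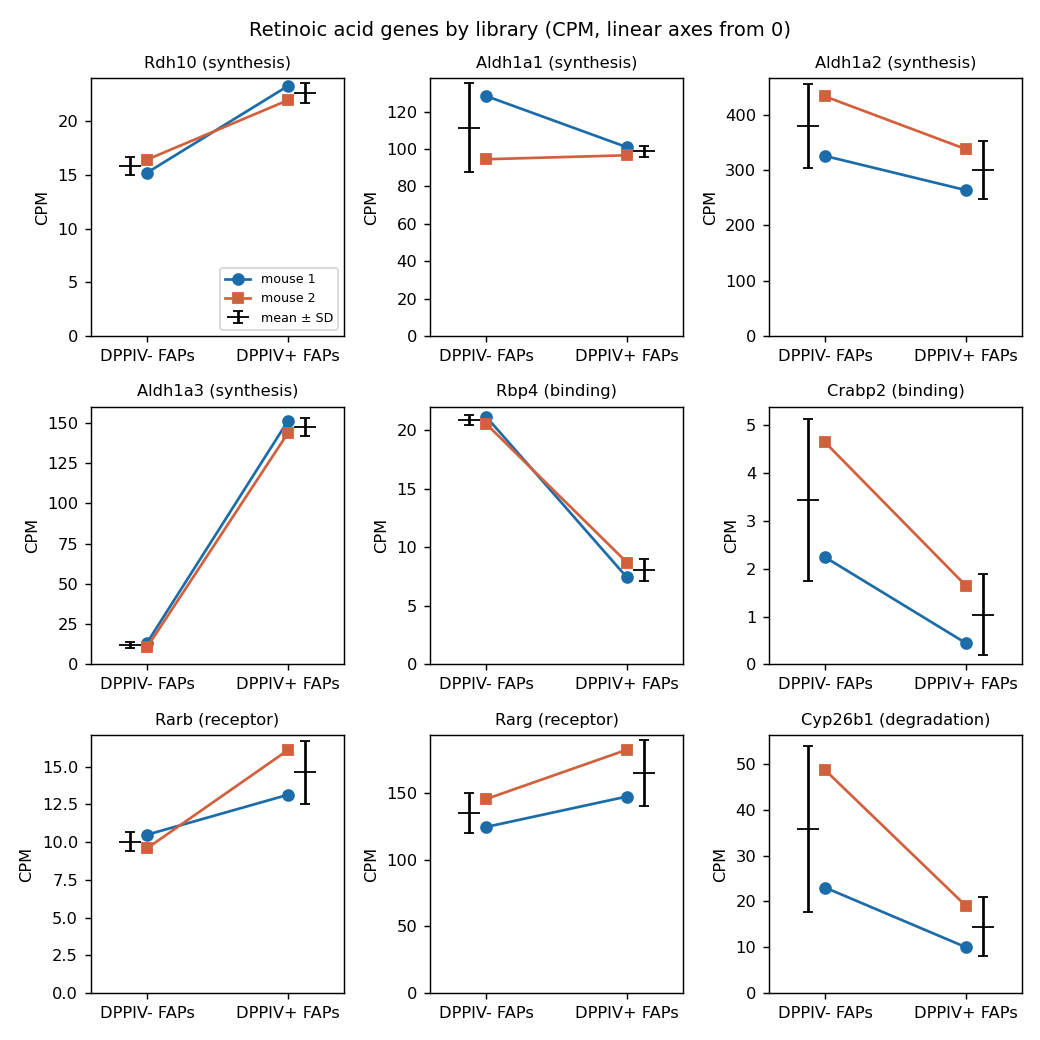
CPM of the 9 members in each library, with the libraries of a mouse joined by a line (circles, mouse 1; squares, mouse 2) and the mean ± SD of each population in black (n = 2 mice); each axis is linear and starts at 0. Both Aldh1a3 lines climb from near the bottom, 10.7 and 13.4 CPM, to 144 and 151 CPM, while the Aldh1a1 lines differ in direction.

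Synthesis begins with the oxidation of retinol. Rdh10 (ENSMUSG00000025921.7, chromosome 1 from 16105774 to 16133734 of GRCm38), which encodes the retinol dehydrogenase essential for retinoic acid in the embryo, had 15.2 CPM in DPPIV- cells of mouse 1 and 16.4 CPM in mouse 2. In DPPIV+ cells it had 23.3 and 22.0 CPM. Both DPPIV+ libraries lay above both DPPIV- libraries. The log2 fold change was 0.52 (standard error 0.11, adjusted p = 1.62e-05 in edgeR, Benjamini-Hochberg method), and DESeq2's Wald test gave an adjusted p of 0.0601.

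Aldh1a3 (ENSMUSG00000015134.15, chromosome 7 from 66390890 to 66427517), one of the retinal dehydrogenases that carry out the irreversible last step, had 282 reads in DPPIV- cells of mouse 1 and 209 in mouse 2. In DPPIV+ cells it had 2726 and 2622 reads. These counts correspond to 13.4 and 10.7 CPM against 151 and 144 CPM, so the mice differed little within a population and the populations were far apart. The log2 fold change was 3.61 (standard error 0.08), 3.49 within mouse 1 and 3.75 within mouse 2, at an adjusted p with a log10 of -412 in edgeR. The value of Dpp4, which encodes the sorting marker, was 3.41, with 3.02 within mouse 1 and 3.86 within mouse 2, so the order of both genes differed between the mice. Of the 11588 genes tested, 21 (0.181%) were called with a larger increase. A stretch of 188 bases of Aldh1a3 transcripts is 97.3% identical to Synrg, which had between 37.9 and 51.6 CPM.

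The relatives of Aldh1a3, both more abundant than it in DPPIV- cells, differed less between the populations. Aldh1a2 (ENSMUSG00000013584.5, chromosome 9 from 71215789 to 71296243), the main enzyme of the early embryo, had 326 and 433 CPM in DPPIV- cells of mouse 1 and mouse 2 and 264 and 338 CPM in DPPIV+ cells. It was lower in DPPIV+ cells within each mouse, while the ranges of the populations overlapped because mouse 2 was higher in both. The log2 fold change was -0.33 (standard error 0.07, adjusted p = 6.12e-06 in edgeR). Aldh1a1 (ENSMUSG00000053279.8, chromosome 19 from 20492715 to 20643465) had 128 and 94.5 CPM in DPPIV- cells and 100.9 and 96.7 CPM in DPPIV+ cells. It was lower in DPPIV+ cells of mouse 1 (log2 ratio -0.35) and nearly level in mouse 2 (0.03). Its fitted log2 fold change of -0.16 passed the threshold narrowly (adjusted p = 0.0445 in edgeR), and DESeq2 gave an adjusted p of 0.608. Without mouse 1 the value was 0.03, so the direction of Aldh1a1 rests on that mouse. Transcripts of Aldh1a1 are 88.9% identical over 2069 bases to its neighbour in the family Aldh1a7, which had between 0 and 2 reads per library.

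The sum of the Aldh1a genes differed little between the populations, while its make-up differed. The 3 genes together had 503 ± 50.2 CPM (SD, n = 2) in DPPIV- cells and 547 ± 44.0 CPM in DPPIV+ cells. Within the mice the sum was higher in DPPIV+ cells, with 467 against 516 CPM in mouse 1 and 538 against 578 CPM in mouse 2. Per kilobase of exon it was lower, with 173 against 169.7 CPM per kilobase in mouse 1 and 213 against 199.9 in mouse 2. Of these reads, Aldh1a3 held 2.88% in DPPIV- cells of mouse 1 (95% Wilson interval 2.56 to 3.23) and 1.98% in mouse 2 (1.73 to 2.26). In DPPIV+ cells its share was 29.3% in mouse 1 (28.4 to 30.2) and 24.8% in mouse 2 (24.0 to 25.7). These intervals cover the counting error of 1 library only and not the spread between mice. The reads carry no molecular identifiers, so copies of the same molecule cannot be told apart. Aldh1a2 remained the largest part in every library. Per kilobase of exon, the scale on which different genes can be compared, it made up 83.3% and 89.9% of the family in DPPIV- cells and 68.7% and 74.6% in DPPIV+ cells.

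**Figure D2:**
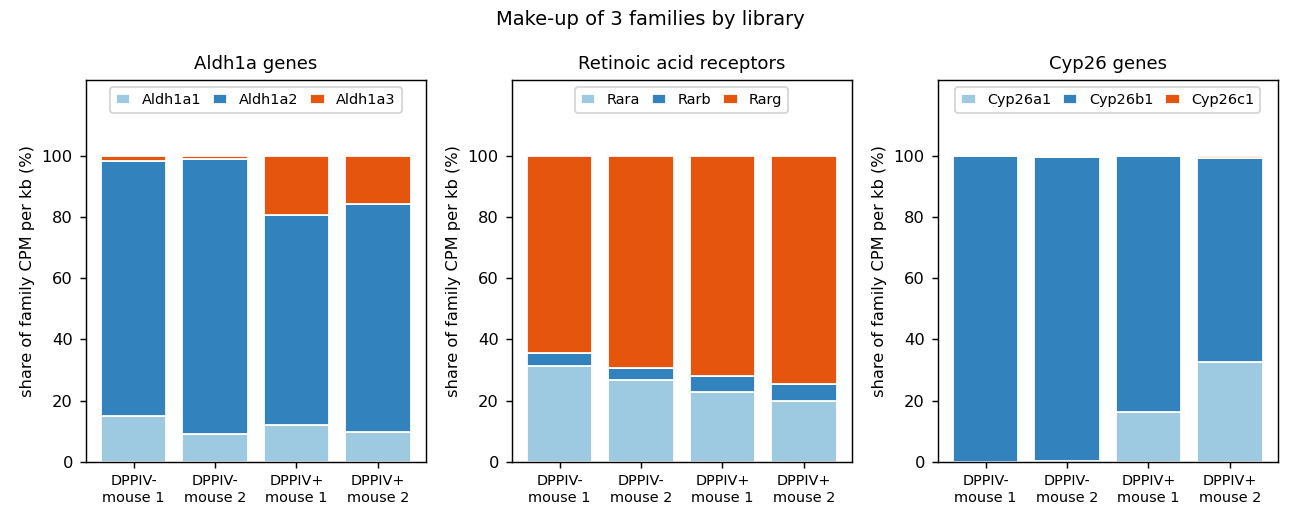
Share of each gene in the summed CPM per kilobase of its family (stacked bars, percent) for the Aldh1a genes, the retinoic acid receptors and the Cyp26 genes in each of the 4 libraries. Aldh1a3 takes 1.69% and 1.09% of its family in DPPIV- cells and 19.3% and 15.6% in DPPIV+ cells, and Cyp26a1 is visible in the DPPIV+ libraries alone.

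The genes for binding proteins were lower in DPPIV+ cells. Rbp4 (ENSMUSG00000024990.13, chromosome 19 from 38116629 to 38125281), which encodes the secreted carrier of retinol, had 21.2 and 20.6 CPM in DPPIV- cells of mouse 1 and mouse 2 and 7.43 and 8.71 CPM in DPPIV+ cells. The populations were well separated and the mice close together. The log2 fold change was -1.37 (standard error 0.13, adjusted p = 6.20e-24 in edgeR). Adipocytes are a known source of RBP4, and their genes Adipoq, Plin1, Cidec, Lep and Retn had between 0 and 5 reads each in every library. The part of adipocytes or other cells in the Rbp4 values was not tested. Crabp2 (ENSMUSG00000004885.5, chromosome 3 from 87948666 to 87953376) had the fewest reads of the members in every library, with 47 and 91 reads in DPPIV- cells and 8 and 30 reads in DPPIV+ cells. Within each mouse the DPPIV+ library was lower, with log2 ratios of -2.32 and -1.49. The fitted log2 fold change was -1.75 (standard error 0.30, adjusted p = 5.52e-08 in edgeR), and without mouse as a block the adjusted p was 0.0838. Without the block it was -1.06 when the DPPIV+ library of mouse 1 was left out and -1.10 when the DPPIV- library of mouse 2 was left out. Crabp2 reached the filter of 2 CPM through the DPPIV- libraries alone.

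The receptors were slightly higher in DPPIV+ cells. Rarg (ENSMUSG00000001288.15, chromosome 15 from 102234938 to 102257517) encodes RARγ and had 124 and 145 CPM in DPPIV- cells of mouse 1 and mouse 2 and 147 and 182 CPM in DPPIV+ cells. The lower DPPIV+ value lay only just above the higher DPPIV- value. The log2 fold change was 0.29 (standard error 0.07, adjusted p = 9.13e-05 in edgeR). Rarb (ENSMUSG00000017491.9, chromosome 14 from 16430839 to 16819156) encodes RARβ and had 10.5 and 9.59 CPM in DPPIV- cells and 13.1 and 16.1 CPM in DPPIV+ cells. The fitted value was 0.54 on the log2 scale (standard error 0.14, adjusted p = 0.000538 in edgeR), and DESeq2 gave an adjusted p of 0.152. Of the 5265 exon bases of Rarb, 1793 are shared with Top2b on the opposite strand, and Top2b had between 2375 and 2766 reads per library. Whether the counting used strand is not given in the sources used here, so reads of Top2b in the count of Rarb cannot be told apart.

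Rara, the receptor gene outside the 9 members, went the other way. It had 62.1 and 57.7 CPM in DPPIV- cells and 48.1 and 50.1 CPM in DPPIV+ cells, which gave a log2 fold change of -0.29 (adjusted p = 0.000238 in edgeR, 0.173 in DESeq2). Rarg made up the largest part of the receptor genes per kilobase, 64.3% and 69.4% in DPPIV- cells and 71.9% and 74.7% in DPPIV+ cells. Among the RXR genes, Rxra and Rxrb had log2 fold changes of -0.03 and 0.02 that did not pass the threshold. Rxrg was lower, with 62 and 53 reads in DPPIV- cells against 7 and 11 reads in DPPIV+ cells (fitted log2 fold change -2.50, standard error 0.35). Like Crabp2, it passed the filter through the DPPIV- libraries alone.

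Cyp26b1 (ENSMUSG00000063415.12, chromosome 6 from 84571414 to 84593908), which encodes an enzyme that degrades retinoic acid, had 23.0 CPM in DPPIV- cells of mouse 1 and 48.7 CPM in mouse 2. In DPPIV+ cells it had 9.98 and 19.0 CPM. Both populations were higher in mouse 2, and within each mouse the DPPIV+ library was lower, by log2 ratios of -1.21 and -1.36. The log2 fold change was -1.30 (standard error 0.10, adjusted p = 5.82e-36 in edgeR), and without mouse as a block the adjusted p was 0.0568. Without the DPPIV- library of mouse 2, and without the block, the log2 fold change was -0.67.

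Cyp26a1, the related enzyme gene that is known to respond strongly to retinoic acid, went in the opposite direction at low counts. It had 0 and 1 reads in DPPIV- cells of mouse 1 and mouse 2, against 13 and 63 reads in DPPIV+ cells. Against the limit of 3 reads that a count of 0 allows, it was at least 5.04-fold higher in DPPIV+ cells of mouse 1. In mouse 2 the ratio was 67.6, with an exact 95% counting interval from 11.7 to 2713. Cyp26a1 reached 2 CPM in 1 library and was therefore not tested. With no filter its adjusted p was 3.87e-11 in edgeR's quasi-likelihood test, which rests on the spread borrowed across genes. The DPPIV+ libraries themselves lay apart, with 0.721 CPM in mouse 1 and 3.45 CPM in mouse 2. Per kilobase, Cyp26b1 still made up 83.7% and 66.7% of the Cyp26 genes in DPPIV+ cells of mouse 1 and mouse 2, and Cyp26a1 16.3% and 32.7%. Cyp26a1 lies 415.1 kb from Rbp4 on chromosome 19, and these genes differed in opposite directions. The third gene of the family, Cyp26c1, had at most 1 read per library.

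Rarb and Cyp26a1 are printed with their promoters because receptor binding elements are known to sit there. Retinoic acid receptors bind direct repeats of a hexamer such as AGGTCA. This form, as well as AGTTCA, the form GGGTCA and the form GGTTCA, were searched on both strands with a spacer of 5, 2 or 1 bases in windows from 250 bases before to 50 bases after each start (RefSeq, GRCm38.p6). A repeat with a spacer of 5 was in 32 of 32851 windows (0.0974%). Of the 6 members in the table (Aldh1a1, Aldh1a2, Rbp4, Rarb, Rarg and Cyp26b1) it was in that of Rarb, and of the other listed genes in that of Cyp26a1. Rdh10, Aldh1a3 and Crabp2 had no entry. The start given for Rarb lies inside the gene as annotated by GENCODE and not at its 5′ end. The match lay from 53 to 37 bases before this start of Rarb and from 32 to 16 bases before that of Cyp26a1, where it reads on the opposite strand. The window of Cyp26b1, shown for comparison, holds none of the repeats, which says only that these letters are not in it. The 250 bases before each start follow on the strand of the gene, 5′ to 3′, with the hexamers in capitals, for Rarb at chr14:16575477-16575726 (minus strand), Cyp26a1 at chr19:37697558-37697807 (plus strand) and Cyp26b1 at chr6:84593811-84594060 (minus strand).
Rarb: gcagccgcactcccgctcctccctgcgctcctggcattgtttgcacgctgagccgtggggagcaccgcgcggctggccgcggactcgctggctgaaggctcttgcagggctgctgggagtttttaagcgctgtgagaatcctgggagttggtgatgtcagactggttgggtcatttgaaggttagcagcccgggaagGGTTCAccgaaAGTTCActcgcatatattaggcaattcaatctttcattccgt
Cyp26a1: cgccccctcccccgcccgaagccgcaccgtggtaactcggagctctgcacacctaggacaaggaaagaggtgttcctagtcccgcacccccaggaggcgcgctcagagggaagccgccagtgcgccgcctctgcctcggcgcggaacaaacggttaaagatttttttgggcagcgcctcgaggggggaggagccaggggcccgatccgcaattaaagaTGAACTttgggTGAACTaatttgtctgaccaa
Cyp26b1: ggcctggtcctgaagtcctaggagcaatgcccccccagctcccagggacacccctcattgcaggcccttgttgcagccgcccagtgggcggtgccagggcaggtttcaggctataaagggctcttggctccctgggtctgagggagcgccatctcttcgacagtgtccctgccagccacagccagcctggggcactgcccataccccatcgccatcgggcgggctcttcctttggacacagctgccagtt

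**Figure D3:**
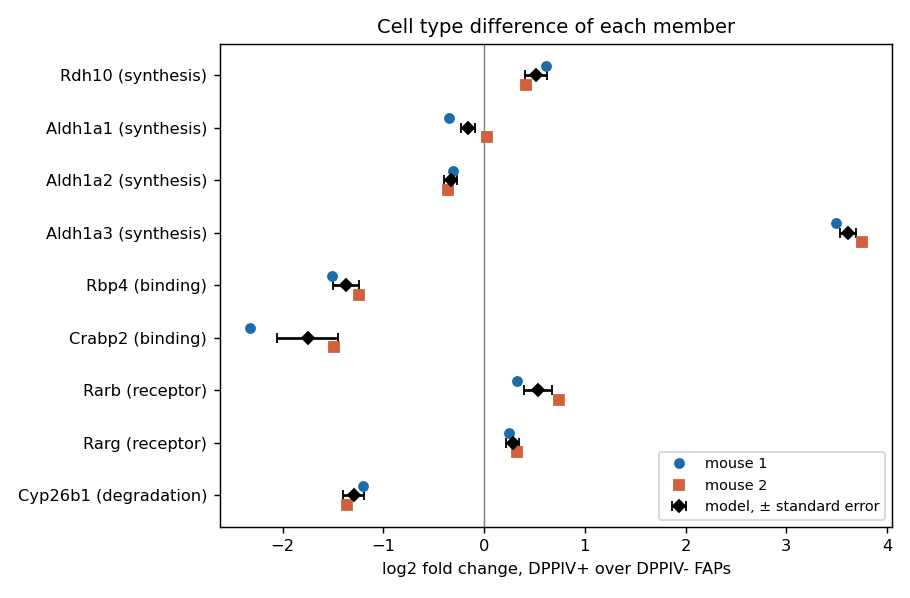
Log2 fold change of each member, DPPIV+ over DPPIV- cells, from the model with mouse as a block (diamonds, bars for the standard error) beside the log2 ratio within mouse 1 (circles) and mouse 2 (squares). The bars rest on the spread borrowed across genes. Aldh1a3 lies at 3.61, Rbp4, Crabp2 and Cyp26b1 lie between -1.75 and -1.30, and the remaining members lie between -0.33 and 0.54.

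Per kilobase of exon, the order of the members was led by Aldh1a2 and Rarg in both populations. In DPPIV- cells, Aldh1a2 had 168 ± 33.6 CPM per kilobase (SD, n = 2), Rarg 31.7 ± 3.48, Aldh1a1 22.6 ± 4.84 and Rbp4 15.5 ± 0.322. Cyp26b1 with 6.70 ± 3.39 and Rdh10 with 3.80 ± 0.207 came next. Aldh1a3 (2.61 ± 0.426), Crabp2 (2.60 ± 1.28) and Rarb (1.91 ± 0.121) were at the bottom, and neighbours among these overlapped in range. In DPPIV+ cells, Aldh1a2 had 133 ± 23.1 CPM per kilobase and Rarg 38.7 ± 5.83. Aldh1a3 had moved up to 31.9 ± 1.15, above Aldh1a1 with 20.0 ± 0.615. Rbp4 (6.01 ± 0.673) and Rdh10 (5.44 ± 0.225) overlapped in range, as did Rarb (2.78 ± 0.398) and Cyp26b1 (2.71 ± 1.19), and Crabp2 was last with 0.789 ± 0.642.

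The other genes of the retinoid pathway changed in both directions. Of 42 genes listed, 24 passed the filter, 4 were higher and 8 lower in DPPIV+ cells, and 12 did not pass the threshold, where 15.9% of all genes tested were higher and 17.2% lower. The median log2 fold change was -0.07 against 0.00 over all genes tested. DESeq2 called 4 higher and 4 lower, where 7.97% and 8.59% of all genes were called. With 2 CPM required in 3 libraries, which leaves out Rxrg and Dhrs9, 3 were higher and 7 lower of 22 tested. The 4 higher genes were Bco2, Dhrs9, Adh7 and Ncoa2. Bco2, which encodes a carotenoid-cleaving enzyme of mitochondria, had 52 and 33 reads in DPPIV- cells of mouse 1 and mouse 2, against 249 and 222 reads in DPPIV+ cells, a log2 fold change of 2.64 (standard error 0.20). Dhrs9 and Adh7 encode dehydrogenases that can oxidise retinol and had log2 fold changes of 2.03 (standard error 0.29) and 1.47 (standard error 0.14). Dhrs9 was under 2 CPM in both DPPIV- libraries and passed the filter through the DPPIV+ libraries alone. Ncoa2, a coactivator of nuclear receptors, had 0.44 (standard error 0.07).

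Several abundant genes of retinol handling were lower. Dhrs3, whose enzyme returns retinal to retinol, had 62.3 and 94.8 CPM in the DPPIV- libraries of mouse 1 and mouse 2 against 31.6 and 54.8 CPM in DPPIV+ cells (log2 fold change -0.88, standard error 0.07). Both DPPIV+ libraries lay below both DPPIV- libraries. Adh1, an alcohol dehydrogenase that oxidises retinol, had a log2 fold change of -0.72 (standard error 0.07), opposite to its relative Adh7. Lpl, the lipoprotein lipase that also releases retinol from circulating esters, had 1207 ± 147 CPM in DPPIV- cells and 602 ± 8.98 CPM in DPPIV+ cells (adjusted p = 7.26e-43 in edgeR). Fabp5, which can carry retinoic acid, Nrip1 and Ncoa3, which are coregulators of nuclear receptors, had log2 fold changes of -0.47, -0.29 and -0.16, and none of these passed in DESeq2. Crabp1, a close relative of Crabp2, had 18 and 14 reads in DPPIV- cells and 7 and 4 reads in DPPIV+ cells and was under the filter.

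**Figure D4:**
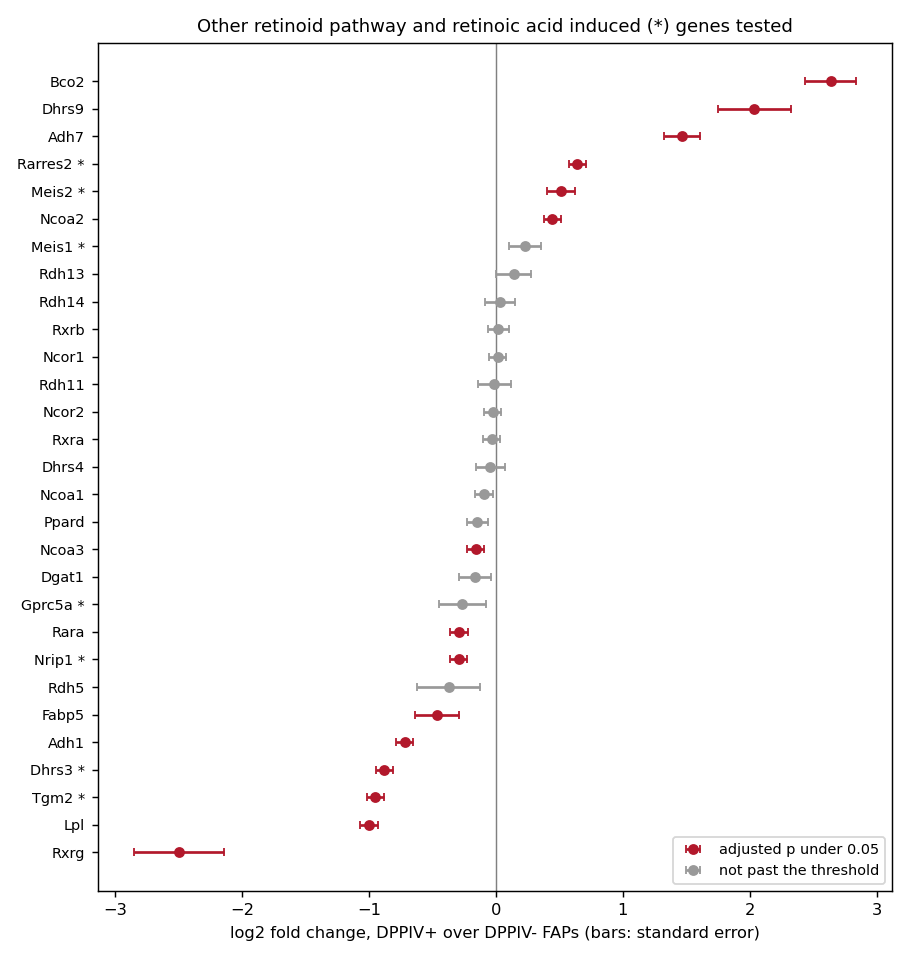
Log2 fold change, DPPIV+ over DPPIV- cells, of the genes outside the 9 members that were tested from the pathway list and the list of genes known to be induced by retinoic acid (marked by an asterisk), with bars for the standard error. The bars rest on the spread borrowed across genes. Red points passed an adjusted p of 0.05 in edgeR and grey points did not. Bco2 lies furthest right at 2.64 and Rxrg furthest left at -2.50.

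Genes known to be induced by retinoic acid did not share a direction between the populations. Of 18 listed, 10 were tested, 3 were higher (Rarb, Meis2 and Rarres2) and 5 lower (Cyp26b1, Dhrs3, Crabp2, Tgm2 and Nrip1), where 15.9% of all genes tested were higher and 17.2% lower. The median log2 fold change was -0.28. DESeq2 called 1 higher and 4 lower, and without mouse in the edgeR model 3 were higher and 1 lower. The list includes 3 of the members, and without them 2 were higher and 3 lower of 7 tested. Rarres2, which encodes the chemoattractant chemerin, had 305 and 249 CPM in DPPIV- cells of mouse 1 and mouse 2 and 422 and 437 CPM in DPPIV+ cells (log2 fold change 0.64, standard error 0.07). It shares 892 of its 2656 exon bases with Lrrc61, which had at most 9.18 CPM. Meis2, a homeodomain factor, was higher by 0.52 on the log2 scale (standard error 0.11, adjusted p = 2.20e-05 in edgeR, 0.0646 in DESeq2). Tgm2, a transglutaminase, had 182 and 207 CPM in DPPIV- cells and 82.2 and 123 CPM in DPPIV+ cells (log2 fold change -0.95, standard error 0.07).

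The mice differed in part of the same genes. In the mouse term of the model, 4 members were higher in mouse 2 (Aldh1a2, Crabp2, Rarg and Cyp26b1) and Aldh1a1 was lower, where 8.98% of all genes tested passed, 4.47% higher and 4.51% lower. Cyp26b1 was 2.03-fold higher in mouse 2 (log2 fold change 1.02, standard error 0.10, adjusted p = 9.14e-22 in edgeR) and Crabp2 2.39-fold higher (1.26, standard error 0.29, adjusted p = 0.000584). Aldh1a3, Rbp4, Rdh10 and Rarb did not pass, with log2 values between -0.15 and 0.10. DESeq2 called Aldh1a2 and Cyp26b1 between the mice, and it gave no adjusted p for Crabp2. Of the 10 retinoic acid induced genes tested, 6 were higher in mouse 2 in edgeR (Cyp26b1, Crabp2, Gprc5a, Dhrs3, Tgm2 and Nrip1). Of these 6, DESeq2 called Cyp26b1 and Dhrs3 alone. Gprc5a had 4.72 and 4.82 CPM in DPPIV- and DPPIV+ cells of mouse 1 and 10.8 and 7.78 CPM in mouse 2. Markers of other cells differed between the mice in edgeR as well. There, 4 of 4 tenocyte and 4 of 5 myofibre genes were higher and 5 of 5 blood endothelial and 4 of 6 macrophage genes lower in mouse 2. Of these marker genes, DESeq2's Wald test called Fmod alone (adjusted p = 0.0117), and it gave no adjusted p for Emcn. Xist differed between the mice as well, with 153 and 166 reads in mouse 1 against 1 and 3 reads in mouse 2. With 1 mouse on each side, sex and other differences between the animals cannot be told apart. The part of these cells and of sex in the difference between the mice was not tested.

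**Figure D5:**
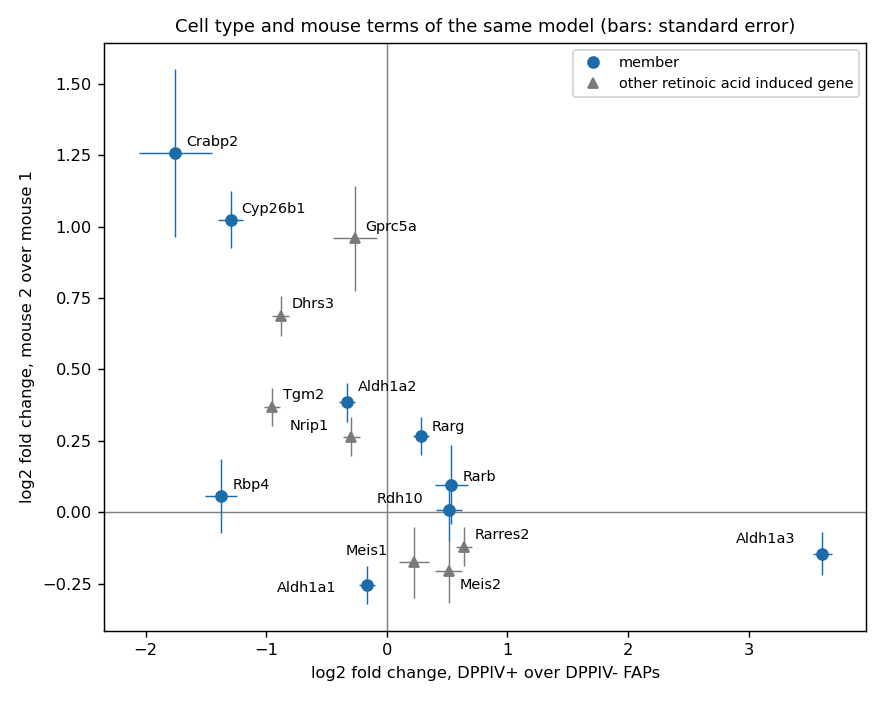
Log2 fold change between the populations (horizontal, DPPIV+ over DPPIV-) against that between the mice (vertical, mouse 2 over mouse 1) for the members (circles) and the other retinoic acid induced genes tested (triangles), with bars for the standard errors. The bars rest on the spread borrowed across genes. Crabp2 and Cyp26b1 sit at the upper left, lower in DPPIV+ cells and higher in mouse 2. Aldh1a3 sits at the far right near the line of no difference between the mice.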

How the data were processed

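Both FAP populations of 2 mice were sequenced as bulk RNA, and the same animal number in the labels ties 1 DPPIV- to 1 DPPIV+ library. The authors demultiplexed with bcl2fastq 2.20, aligned paired-end reads to mm10 with STAR, tallied them per gene with RnaReadCounter and deposited raw counts, with no normalization. The labels name a NEBNext and the methods a TruSeq stranded kit. The annotation release and strand setting are not given in the sources used here.

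From these counts, genes that reached 2 CPM in 2 or more libraries entered the tests. They were normalized by TMM and compared in R 4.3.3 with edgeR 4.0.16 (quasi-likelihood F test, two-sided, mouse and cell type, Benjamini-Hochberg threshold 0.05). The prior degrees of freedom were infinite. DESeq2 1.42.0 was an alternative. Pairing is by animal, and the differences between the mice correlated across genes at 0.415 between the populations. Standard errors are the log2 fold change over the square root of F, so they rest on the spread borrowed across genes. Log2 ratios per mouse used a prior count of 0.125. Lengths, positions and overlaps are from GENCODE M21, and BLAST hits of at least 97% identity or between listed relatives are given. Scripts were tested on simulated data.

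Named genes are the 9 members, listed genes past the threshold, close relatives and Dpp4. One pathway gene is not reported here and was left out of the lists. The members and lists were chosen with earlier results of these data known. Lists of satellite cell (1 tested), glial (3 tested) and perineurial genes (2 tested) had 1 gene lower each (Vcam1, S100b, Cldn1). Vcam1 had 87.2 and 89.1 CPM in DPPIV- cells, while the satellite cell genes Pax7, Myf5 and Cdh15 had at most 0.867 CPM in any library. Myofibre (5 tested) and lymphatic genes (2 tested) had 0 called in edgeR, with 0 and 1 at an unadjusted p under 0.05, and 0 in DESeq2.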

Additional observations from a re-analysis of the deposited data

How the results depend on the processing

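Aldh1a3 and Rbp4 kept their direction and their call under all 11 alternatives with 4 libraries and with each library left out. Crabp2 and Cyp26b1 lost the call, among the alternatives with 4 libraries, only without the replicate block (log2 fold change -1.71 and -1.30). Without the block, Aldh1a1 (-0.17), Aldh1a2 (-0.34) and Rarg (0.29) were also lost. There 1 member, 4 pathway genes and 1 retinoic acid induced gene were called lower, where 9.66% of all genes were. In DESeq2's Wald test, Rdh10 (0.52), Rarb (0.54) and Aldh1a1 (-0.16) were lost, and 2 members were called between the mice. DESeq2 called 2 members and 1 induced gene higher, where 7.97% of all genes were. It called 4 pathway genes lower, where 8.59% of all genes were. Against a 1.5-fold change, 1 member was higher and 3 were lower, 3 pathway genes were lower and 0 induced genes higher. Of all 11588 genes tested, 436 were higher and 656 lower against this change. Rdh10 (0.52), Aldh1a1 (-0.16), Aldh1a2 (-0.33), Rarb (0.54) and Rarg (0.29) were lost there. Aldh1a1 also lost its call with RLE size factors (-0.16), at 10 counts in every library (-0.16), at an adjusted p under 0.01 (-0.16), with the likelihood ratio test (-0.16) and with no filter (-0.15), and its adjusted p ran from 0.00867 to 1. With 10 counts in every library, 3 members and 1991 of all 12393 genes tested were called lower. Crabp2 could not be tested there or at 2 CPM in 3 libraries. No member matched a repeat with a spacer of 1 or 2 or of AGGTCA alone (0 in each case). The causes were not tested.

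With 1 library left out (no replicate block), members called ranged from 2 to 3 higher and from 1 to 4 lower, pathway genes from 4 to 4 higher and 3 to 5 lower, and induced genes from 1 to 3 higher and 1 to 5 lower. Calls lost without the DPPIV+ library of mouse 1 were those of Rdh10 (0.47), Aldh1a1 (-0.21), Aldh1a2 (-0.17), Crabp2 (-1.06), Rarg (0.43) and Cyp26b1 (-0.91). Without the DPPIV+ library of mouse 2 they were Aldh1a1 (-0.14), Aldh1a2 (-0.52), Rarb (0.39) and Rarg (0.13). Without the DPPIV- library of mouse 1, Aldh1a1 turned to 0.066 and Rarg (0.18) was lost, and without that of mouse 2, Aldh1a2 (-0.12), Crabp2 (-1.10), Rarb (0.48) and Cyp26b1 (-0.67) were lost. Without the DPPIV+ library of mouse 2, Crabp2 kept its call at -2.93. With 1 mouse left out, which allows no test, Aldh1a1 was 0.032 without mouse 1 and -0.35 without mouse 2, and no other member changed direction. With 1 library left out the lone library is assumed to vary like the others. Fewer of all genes tested were called in each of these fits than with 4 libraries and mouse as a block. Whether the members and listed genes lost more calls than other genes was not tested. Mouse was the only unit of replication, and 3 reads correspond to between 0.143 and 0.166 CPM.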

Other observations

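Some listed genes lay under the filter on low counts and are described here, chosen after their values were seen. Bco1, which encodes the enzyme that splits beta-carotene into retinal, had 2 and 0 reads in the DPPIV- libraries of mouse 1 and mouse 2, against 14 and 22 in the DPPIV+ libraries. The ratio was 8.14 in mouse 1 (exact 95% counting interval 1.87 to 73.8), and Bco1 was at least 7.87-fold higher in mouse 2 against 3 reads. It therefore lay on the same side as the related Bco2. The window of Bco1 was the only one among the listed genes with a direct repeat of the hexamers at a spacer of 1, which 0.222% of all windows held. Lrat, whose enzyme makes retinyl esters for storage, had 9 and 5 reads in DPPIV- FAPs and 0 reads in both DPPIV+ libraries, at least 2.58-fold lower in mouse 1 and at least 1.55-fold lower in mouse 2. Rarres1, a gene named for its induction by a retinoid, had 37 and 22 reads against 0 and 5 reads, at least 10.6-fold lower in mouse 1 and with a ratio of 4.10 in mouse 2 (1.51 to 13.9). Stra6, the receptor for RBP4, had between 5 and 14 reads per library.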
